A study of Mus musculus with 12 samples.

Results

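The genes described here encode subunits of the mitochondrial respiratory chain and of ATP synthase in mouse hippocampus. They were taken by name from the table of 29973 RefSeq transcripts (23361 gene names): Ndufa, Ndufb, Ndufc, Ndufs and Ndufv genes for complex I, Sdha to Sdhd for complex II, Uqcr genes and Cyc1 for complex III, Cox4 to Cox8 genes for complex IV and Atp5 genes for complex V. For each gene the transcript with the highest summed signal stood for the gene, and the signal had to reach 10 in 3 or more of 12 libraries. Of 86 names that matched, 80 reached this minimum: 36 of 37 for complex I, 4 of 4 for complex II, 8 of 9 for complex III, 15 of 19 for complex IV and 17 of 17 for complex V. The measured values set the transcript and this minimum. The rule uses no comparison between groups, but it was set with earlier results of these data known.

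The 12 SAGE-Seq libraries came from hippocampus of wild type C57/BL6 mice, each from 1 hippocampus of 1 animal, with 3 libraries in each of 4 groups. The groups were aged mice (14 to 17 months) in an enriched environment (aged EE), aged mice in standard housing (aged SH), young mice (5 to 6 months) in an enriched environment (young EE) and young mice in standard housing (young SH). The comparisons ask what housing does to expression at each age and what age does under each housing. SAGE-Seq reads a tag of 27 bases beside a site of the restriction enzyme NlaIII near the poly(A) end, so that 1 messenger RNA gives about 1 tag whatever its length. Levels are given as reads per 1000000 reads (RPM) after scaling by the bulk of genes, and a difference is a log2 fold change with its standard error (SE). A gene was called changed at an adjusted p under 0.1 over all 13138 genes tested.

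Complexes I to IV pass electrons along the inner mitochondrial membrane. Complex I takes them from NADH, complex II from succinate, complex III from ubiquinol, and complex IV hands them to oxygen. Complexes I, III and IV pump protons as they do so, and complex V, the ATP synthase, lets the protons back to make ATP. Neurons depend on this supply for ion pumping and synaptic transmission. The nuclear genome encodes most subunits, including those measured here, and the mitochondrial genome encodes a few core subunits of complexes I, III, IV and V, for which the table held 0 rows. Some names need care. Ndufa4 is counted with complex I by its name but is now placed in complex IV. Cox4nb, Atp5s and Atp5sl match by name but are not subunits, and Cox7a2l acts in the assembly of supercomplexes.

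The libraries held 6928727 to 16035089 reads, and 1 read was worth 0.0624 to 0.144 RPM. Markers of neurons, astrocytes, oligodendrocytes, microglia and red blood cells were measured in all 12 libraries, and 5 of 8 choroid plexus markers were tested. Some marker sums differed between groups or libraries. Neuron markers (6 of 6 tested) summed to 7983 to 10189 RPM in aged SH and 7166 to 7391 RPM in young SH, but Snap25 and Camk2a make up most of this sum, and at an unadjusted p under 0.05 no neuron marker was higher and 1, Syt1, was lower in aged SH. Syt1 was at 40.8, 61.7 and 27.7 RPM in aged SH and at 80.2, 70.8 and 202 RPM in young SH. Red blood cell markers (3 of 3 tested) summed to 1022 to 1437 RPM in aged SH and 1635 to 3847 RPM in young SH. In single libraries, 1 aged EE library held 1319 RPM of choroid plexus markers, against 81.8 to 186 RPM in the other 11. Oligodendrocyte markers (7 of 7 tested) summed to between 1648 and 7721 RPM. Dentate granule cell markers (3 of 3 tested) summed to 75.2 to 126 RPM in aged EE and 45.6 to 68.8 RPM in aged SH. In young mice they summed to 43.2 to 94.3 RPM in EE and 41.7 to 159 RPM in SH. Endothelium markers (4 of 4 tested) summed to 79.8 RPM in young SH library 3 and to at most 49.1 RPM in the others. Ventral hippocampus markers (5 of 5 tested) summed to 44.9 to 50.7 RPM in aged EE libraries 1 and 3 and 39.2 to 46.8 RPM in young SH libraries 1 and 3, against 163 to 216 RPM in the other 8 libraries. Dorsal hippocampus markers (3 of 3 tested) were high in the same 4 libraries, at 249 to 345 RPM, against 87.8 to 145 RPM in the others. The part of these cell types and regions in the results below was not tested, and in whole tissue fewer cells of a type cannot be told apart from less RNA per cell.

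The subunits were among the abundant transcripts of the hippocampus. Their mean levels ran from 1.01 to 5069 RPM with a median of 201 RPM, against a median of 18.5 RPM over all genes tested. There were 9 genes above 1000 RPM, 43 between 100 and 1000 RPM and 28 below 100 RPM. Complex IV genes gave 42.3% of the summed level, complex V 26.9%, complex I 21.6%, complex III 8.27% and complex II 1.01%.

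**Figure D1:**
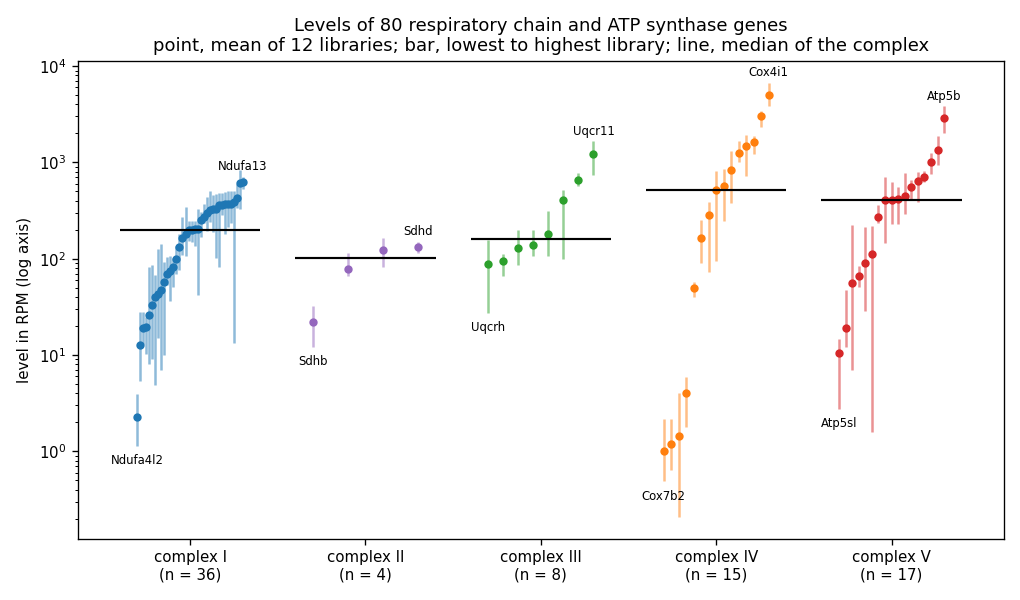
Levels of the 80 genes in RPM on a log axis, grouped by complex. Points are means of 12 libraries, bars run from the lowest to the highest library and black lines are medians of the complex, which lie between 100 RPM (complex II) and 517 RPM (complex IV).

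In complex I, the highest were Ndufa13 at 619 RPM, Ndufb9 at 616 RPM and Ndufb6 at 429 RPM, all accessory subunits. Among the catalytic core subunits, Ndufs1, Ndufs7 and Ndufv1 stood lower. Ndufs1, which carries iron-sulphur clusters, averaged 32.8 RPM, Ndufs7 26.1 RPM and Ndufv1, which binds NADH, 19.3 RPM. Higher core subunits were Ndufs3 at 372 RPM, Ndufs8 at 203 RPM and Ndufv2 at 180 RPM. In complex II, Sdhd and Sdhc, the membrane anchors, averaged 133 and 78.0 RPM. Sdha, the flavoprotein that oxidises succinate, averaged 123 RPM and Sdhb, the iron-sulphur subunit, 21.9 RPM. The parts of a complex with fixed stoichiometry were thus measured at tag levels that differed several fold. The annotated Ndufs1 tag is cut short by the transcript end, and the part of tag position in these levels was not tested.

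In complex III, Uqcr11 averaged 1210 RPM, Uqcrq 659 RPM and Uqcrc1, a core protein, 409 RPM, while the electron-carrying subunits were lower, with Cyc1 (cytochrome c1) at 182 RPM and Uqcrfs1 (the Rieske protein) at 130 RPM. Uqcrh, the hinge protein, was the lowest at 87.6 RPM. In complex IV, Cox4i1 was the highest of all members at 5069 RPM, rank 6 among the genes tested, followed by Cox8a at 3030 RPM and Cox7b at 1638 RPM. In complex V, Atp5b, the catalytic beta subunit, averaged 2905 RPM, Atp5l 1330 RPM and Atp5o 1007 RPM, and Atp5a1, the alpha subunit, 709 RPM. Ndufa4l2 (2.27 RPM), Sdhb, Uqcrh, Cox7b2 (1.01 RPM) and Atp5sl (10.4 RPM) were the lowest of their complexes.

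Several complex IV subunits have isoforms with tissue-restricted expression, and in each tested pair the widely expressed form took nearly all tags. Cox4i1 gave 99.9% of the Cox4i1 and Cox4i2 pair, where Cox4i2, known from lung, averaged 4.03 RPM. Cox6a1 gave 99.8% against the heart and muscle form Cox6a2 at 1.18 RPM. Cox6b1 gave 99.7% against the testis form Cox6b2 at 1.43 RPM, and Cox7b gave 99.9% against Cox7b2. Cox8b and Cox8c did not reach the signal minimum, with summed signals of 19.2 and 0 over the 12 libraries. The Cox7a isoforms could not be compared, since Cox7a1 was listed at 0, Cox7a2 summed to 7.07 and only Cox7a2l (284 RPM) passed. The 3 genes for the c subunit of ATP synthase, which encode the same mature protein, were shared more evenly, with 39.7% for Atp5g3, 36.1% for Atp5g1 and 24.2% for Atp5g2.

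Of the 6 genes that did not reach the minimum, Ndufb4, Cox7a1 and Cox8c were listed at 0. Uqcr10, with a summed signal of 53.9, reached 10 in 1 library and lay nearest outside. Cox6a2 (122.8) and Cox7b2 (104.5) lay nearest inside, each with 4 libraries at 10 or more. All 80 members were among the 13138 genes tested. Ndufs5 had the same reads as BC002163, which overlaps it, so the pair is 1 measurement. Ndufa13, Ndufa2, Ndufa4l2, Ndufb11, Uqcrc2, Atp5j, Atp5f1 and Cox6a2 overlap a gene on the opposite strand, and whether strand entered the counting is not given in the sources used here, so their values are less certain.

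For housing in aged mice, no subunit passed the test. Aged EE against aged SH gave 0 of 80 members at an adjusted p under 0.1 by limma, and the lowest adjusted p among them was 0.52. In this comparison 0.00761% of all genes were called. By edgeR's quasi-likelihood and likelihood ratio tests and by DESeq2 the count of members was 0 as well. At an unadjusted p under 0.05 there were 7 of 80 members, against 8.9% of all genes. The median log2 fold change of members was 0.08, against 0.02 over all genes, with 0.07 for complex I, -0.24 for complex II, 0.11 for complex III, 0.09 for complex IV and 0.14 for complex V. The libraries of both groups did not overlap for 9 members that were higher in aged EE (8.37% of all genes) and for 7 that were lower (8.75% of all genes). These shares lay near the background.

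Among the members with the smallest p in aged mice, Atp5b was measured at 3443, 3811 and 3634 RPM in aged EE libraries 1, 2 and 3 and at 2895, 3017 and 2587 RPM in aged SH. The aged EE libraries were all above the aged SH libraries, and the log2 fold change was 0.36 with an SE of 0.16 (adjusted p = 0.54 by limma). Cox6b1 was at 826, 856 and 728 RPM in aged EE and at 581, 675 and 248 RPM in aged SH (log2 fold change 0.80, SE 0.33, adjusted p = 0.53). Here aged SH library 3 lay far below the other aged libraries. Atp5s, the coupling factor B that is not a structural subunit, was at 13.9, 13.4 and 12.01 RPM in aged EE and at 21.6, 47.8 and 16.0 RPM in aged SH (log2 fold change -0.95, SE 0.32, adjusted p = 0.52). Aged SH library 2 lay far above the other aged libraries.

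Complex II, the succinate dehydrogenase, had the lowest median in aged housing. Sdhb was at 24.0, 22.5 and 21.5 RPM in aged EE and at 28.7, 24.8 and 32.3 RPM in aged SH (log2 fold change -0.33, SE 0.23), and Sdhc was at 71.4, 66.1 and 65.9 RPM in aged EE and at 71.9, 81.3 and 104 RPM in aged SH (-0.32, SE 0.20). With Sdhd at -0.16, 3 of the 4 genes had all aged EE libraries below all aged SH libraries, as did 8.75% of all genes, and no complex II gene was at an unadjusted p under 0.05. Sdha was at 0.04 (SE 0.21). The other members named by their p were Ndufa4l2 at -0.90 (SE 0.39), Ndufs6 at 1.09 (SE 0.50), Uqcr11 at 0.21 (SE 0.18), Uqcrb at -0.19 (SE 0.19) and Cox6b2 at 1.27 (SE 0.51, on levels of 0.208 to 4.06 RPM), none past the threshold.

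**Figure D2:**
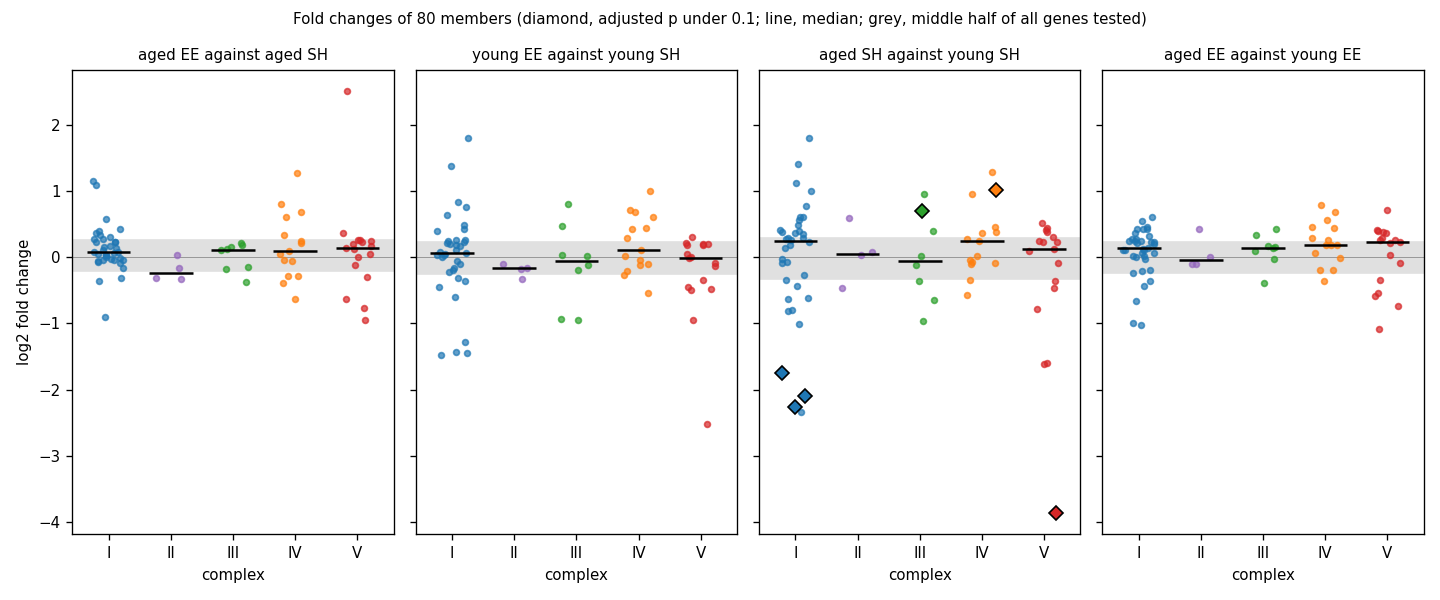
Log2 fold changes of the 80 members in the 4 comparisons, by complex, with the first-named group over the second. Diamonds are members at an adjusted p under 0.1 (6, all in aged SH against young SH), black lines are medians of the complex and the grey band holds the middle quartiles of all genes tested.

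In young mice the count of calls was also 0 of 80, with a lowest adjusted p of 0.39 by limma, and 0% of all genes passed. DESeq2 called 2 members, Cyc1 and Cox7b, and 0.883% of all genes. At an unadjusted p under 0.05 there were 11 members, against 9.64% of all genes. The median log2 fold change of young EE against young SH was 0.02 for members and -0.01 for all genes. By complex it was 0.07, -0.17, -0.05, 0.10 and -0.01 for I to V. All libraries of young EE lay above those of young SH for 7 members (6.7% of all genes) and below them for 6 (6.17% of all genes).

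Cyc1, the haem subunit that passes electrons to cytochrome c, had the smallest p in young mice. It was at 151, 108 and 154 RPM in young EE libraries 1, 2 and 3, against 263, 311 and 215 RPM in young SH (log2 fold change -0.94, SE 0.25, adjusted p = 0.39). The groups did not overlap. Cox7b was at 1738, 1772 and 1818 RPM in young EE, against 1373, 1347 and 1229 RPM in young SH (0.43, SE 0.14, adjusted p = 0.42), again without overlap. Other members named by their p were Ndufs7 at -1.48 (SE 0.45), Ndufa12 at 0.64 (SE 0.21), Uqcr11 at 0.48 (SE 0.18), Cox6c at 0.69 (SE 0.21), Atp5e at -2.53 (SE 0.81), Atp5f1 at -0.34 (SE 0.17), Sdha at -0.32 (SE 0.21) and Sdhc at -0.18 (SE 0.20).

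Young EE library 1 decided the count in young mice. Without it, limma called 4 members (2.24% of all genes were called in that fit): Atp5e, at a log2 fold change of -3.72 (adjusted p = 0.013), Ndufa4 (adjusted p = 0.018) and Ndufs1 (adjusted p = 0.036) were lower and Cox6c (0.92, adjusted p = 0.052) was higher in young EE. In library 1 these genes stood with the young SH libraries. Atp5e was at 130, 7.04 and 15.7 RPM in young EE libraries 1, 2 and 3, and at 118, 108 and 222 RPM in young SH.

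Whether housing acted differently at both ages was tested as the aged housing effect minus the young one, which passed for 0 of 80 members and 0% of all genes by limma. At an unadjusted p under 0.05 there were 7 members, against 12.1% of all genes, and the lowest adjusted p was 0.37. The largest value was 2.78 for Atp5e (SE 1.14) and the lowest -1.80 for Ndufs5 (SE 1.34). Without young EE library 1, 1 member, Atp5e, passed, against 0.158% of all genes.

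In the limma fit of all 12 libraries, age in standard housing was the only one of the 5 comparisons with calls among the members. In aged SH against young SH, 6 of 80 members passed (2.91% of all genes): 4 were lower in aged SH (1.73% of all genes) and 2 were higher (1.18% of all genes). The lower ones were Atp5e, Ndufa4, Ndufs1 and Ndufs7, and the higher ones were Cox6c and Uqcr11. Their adjusted p lay between 0.073 and 0.095 by limma. At an unadjusted p under 0.05 there were 25 members, against 19.4% of all genes. In aged SH, 20 members lay above and 13 below the young SH range with no overlap, against 11.8% and 13.2% of all genes.

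Marker sums differed between the same groups: red blood cell markers were lower in aged SH without overlap (with Hbb-b1 called lower at an adjusted p of 0.095) and the part of blood in the result was not tested. The summed neuron markers were higher without overlap, with no single marker higher at an unadjusted p under 0.05 and Syt1 lower. Ventral markers summed to 46.8 and 39.2 RPM in young SH libraries 1 and 3, against 163 to 177 RPM in aged SH. Dorsal markers were at 249 and 257 RPM in these libraries, against 121 to 145 RPM in aged SH. Young SH library 2 went the other way, at 197 and 87.8 RPM. Dentate granule cell markers summed to 159, 41.7 and 151 RPM in young SH, against 45.6 to 68.8 RPM in aged SH. Endothelium markers summed to 33.1, 34.4 and 79.8 RPM in young SH, against 28.9 to 41.4 RPM in aged SH. In each of these lists 1 marker was lower in aged SH at an unadjusted p under 0.05 by limma. The part of region and of endothelium in the result was not tested. This comparison shares its aged SH libraries with the aged housing comparison and its young SH libraries with the young one.

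These 6 calls were close to the threshold. In fits without 1 library, 0 of 80 members passed when any 1 of the 3 aged EE or 3 aged SH libraries, young EE library 3 or young SH library 3 was left out, with at most 50 of all genes called in these fits. Without young SH library 1 none of the 6 passed and 1 other member, Cox7a2l, did (0.112% of all genes). All 6 were among 9 members called without young EE library 2 (4.26% of all genes) and 14 called without young EE library 1 (8.57% of all genes). Without young SH library 2, 7 members passed, 5 of the 6 among them, against 8.35% of all genes, a share near that of the members. With the 8 libraries the study used the count was 0, and with no filter on low counts 0. The log2 fold changes of the 6 kept their signs in all of these fits.

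Atp5e encodes the epsilon subunit of the ATP synthase stalk (chromosome 2, 174286576 to 174289602, mm9). It was at 15.4, 7.01 and 7.91 RPM in aged SH libraries 1, 2 and 3 and at 118, 108 and 222 RPM in young SH. The groups averaged 10.1 ± 4.62 RPM in aged SH and 150 ± 62.9 RPM in young SH (SD, n = 3 each). The log2 fold change was -3.87 with an SE of 0.81 (adjusted p = 0.073 by limma). Aged EE libraries were at 11.3, 16.7 and 7.85 RPM, within the aged SH range or just above it. Young EE library 1 stood with young SH, and young EE libraries 2 and 3 were near the aged levels. The lowest young SH library was 6.49-fold above the highest of the 6 aged libraries.

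Ndufa4 (chromosome 6, 11850373 to 11857446) was at 23.0, 15.1 and 17.3 RPM in aged SH and at 81.8, 66.1 and 125 RPM in young SH (log2 fold change -2.26, SE 0.47, adjusted p = 0.073). Ndufs1 (chromosome 1, 63190166 to 63223396) was at 21.2, 12.8 and 14.6 RPM in aged SH and at 56.1, 67.5 and 85.6 RPM in young SH (-2.10, SE 0.49, adjusted p = 0.086). Ndufs7, an iron-sulphur subunit near the ubiquinone site (chromosome 10, 79712197 to 79719537), was at 16.9, 10.9 and 17.5 RPM in aged SH and at 38.4, 39.7 and 82.5 RPM in young SH (-1.75, SE 0.45, adjusted p = 0.095). In all 3 genes the aged and young SH libraries were apart, and young SH library 3 was the highest. Young EE library 1 stood with young SH for Ndufa4 and Ndufs1, and young EE libraries 2 and 3 were nearer the aged levels.

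Cox6c, a small subunit of cytochrome oxidase (chromosome 15, 35861731 to 35868001), went the other way. It was at 1579, 1867 and 1921 RPM in aged SH and at 985, 984 and 717 RPM in young SH (log2 fold change 1.01, SE 0.21, adjusted p = 0.073). Uqcr11 (chromosome 10, 79865742 to 79869566) was at 1187, 1181 and 1658 RPM in aged SH and at 965, 740 and 759 RPM in young SH (0.70, SE 0.18, adjusted p = 0.095). Of the pair, Uqcr11 did not pass when reads were scaled by library totals alone (0.59, adjusted p = 0.13).

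**Figure D3:**
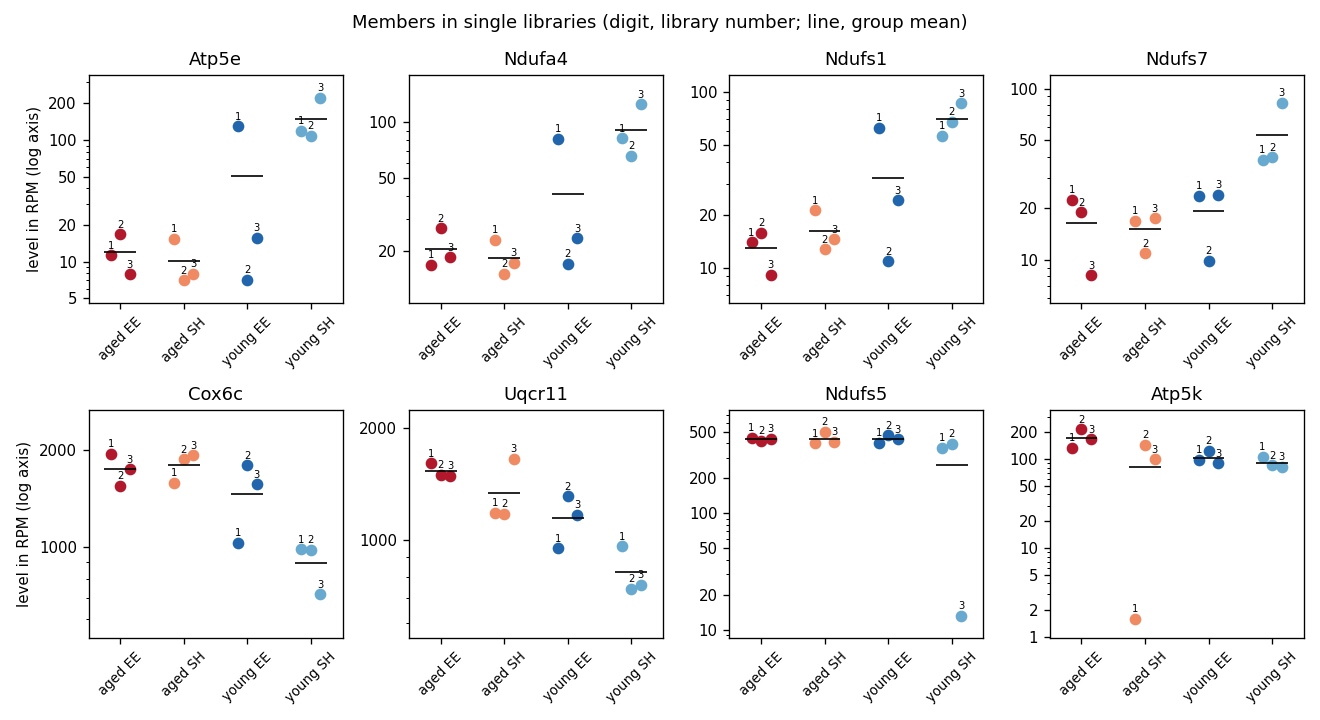
Levels in RPM on log axes of 8 members in the 4 groups, aged EE and SH left of young EE and SH, with a point and a digit for each library and a line for the group mean. Atp5e, Ndufa4 and Ndufs1 are high in 3 young SH libraries and in young EE library 1, Ndufs7 is high in young SH, Cox6c and Uqcr11 are low in these, and Ndufs5 and Atp5k each have 1 library far below the rest.

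Members that did not pass but had the smallest p of their complex were Sdhb at 0.60 (SE 0.23), Sdha at -0.46 (SE 0.21), Cyc1 at -0.64 (SE 0.25), Cox7a2l at 1.29 (SE 0.40) and Atp5j2 at -1.62 (SE 0.54). Among further catalytic subunits, Ndufv1 was at -0.27 (SE 0.29), Uqcrfs1 at -0.37 (SE 0.24), Atp5a1 at 0.13 (SE 0.14) and Atp5b at 0.24 (SE 0.16). These further subunits did not pass the test, whereas Ndufs1 and Ndufs7 did. The median over members was 0.16 and that over all genes 0.00. When reads were scaled by library totals alone these became 0.05 and -0.11. By complex the medians were 0.25, 0.05, -0.05, 0.24 and 0.13 for I to V.

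In enriched housing, aged EE against young EE gave 0 of 80 calls by limma (0% of all genes), with a lowest adjusted p of 0.61 and 7 members at an unadjusted p under 0.05 (7.93% of all genes). The count was 0 by edgeR's quasi-likelihood and likelihood ratio tests and by DESeq2 as well, with 0, 19 and 49 of all genes called. The 7 members at an unadjusted p under 0.05 were all higher in aged EE. The 3 aged EE libraries lay above the 3 young EE libraries for 19 members, against 9.03% of all genes, and below them for 1 member, against 7.55%. The median log2 fold change was 0.18 for members and 0.00 for all genes, and 57 of 80 members were positive, against 50% of all genes. By complex it was 0.13, -0.05, 0.14, 0.19 and 0.23 for I to V.

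The smallest p belonged to Ndufa5, an accessory subunit of the complex I arm in the matrix. It was at 388, 347 and 433 RPM in aged EE and at 196, 314 and 271 RPM in young EE (log2 fold change 0.60, SE 0.18, adjusted p = 0.61). Atp5b was at 0.41 (SE 0.16), Atp5o, the OSCP subunit of the stalk, at 0.39 (SE 0.16), Ndufa2 at 0.55 (SE 0.21), Uqcr11 at 0.43 (SE 0.18), Cox5b at 0.57 (SE 0.27), Sdhb at 0.43 (SE 0.23), Uqcrq at 0.13 (SE 0.13), Cox7b2 at 0.68 (SE 0.41) and Sdhc at -0.11 (SE 0.20). Without young EE library 1 the median of members was 0.10 and 1 member was at an unadjusted p under 0.05.

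The summed level of the 80 members differed between groups and was highest in aged EE. Dentate granule cell markers in aged EE also lay above those of aged SH. Aged EE libraries 1 and 3 were low in ventral and high in dorsal markers. Young SH libraries 1 and 3 were likewise low in ventral and high in dorsal markers. They held 159 and 151 RPM of dentate markers, and their member sums were 32085 and 29054 RPM. The part of these markers in the sums was not tested. The sum was 38957 to 41050 RPM in aged EE, 34343 to 38141 RPM in aged SH, 32056 to 35888 RPM in young EE and 29054 to 32085 RPM in young SH. The aged EE libraries did not overlap with any other group, and aged SH did not overlap with young SH. Scaled by library totals alone, the ranges were 36656 to 39081, 34261 to 37452, 32819 to 35557 and 31068 to 33618 RPM in the same groups, so that aged EE and aged SH then overlapped. Abundant genes weigh most in this sum. Cox4i1 alone was at 6422, 5635 and 5415 RPM in aged EE, 5363, 4595 and 6653 RPM in aged SH, 4017, 5397 and 5342 RPM in young EE and 4059, 4112 and 3822 RPM in young SH. These sums are descriptions and carry no test.

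Across single libraries the members did not move together. A set led by Atp5e, Ndufa4 and Ndufs1 was high in the 3 young SH libraries and in young EE library 1, and Cox6c, Ndufs3, Ndufb7 and Atp5h were low in the same libraries. Over the 12 libraries the log2 level of Atp5e correlated at r = 0.99 with Ndufa4, 0.98 with Ndufs1, 0.94 with Ndufc2, 0.93 with Ndufb2 and 0.92 with Atp5j2, and at r = -0.98 with Cox6c, -0.92 with Ndufs3 and -0.92 with Ndufb7. These correlations describe 12 points in 4 groups that share the pattern of those 4 libraries. All 6 aged libraries lay below all 3 young SH libraries for 10 members (7.81% of all genes) and above them for 15 (5.8% of all genes).

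**Figure D4:**
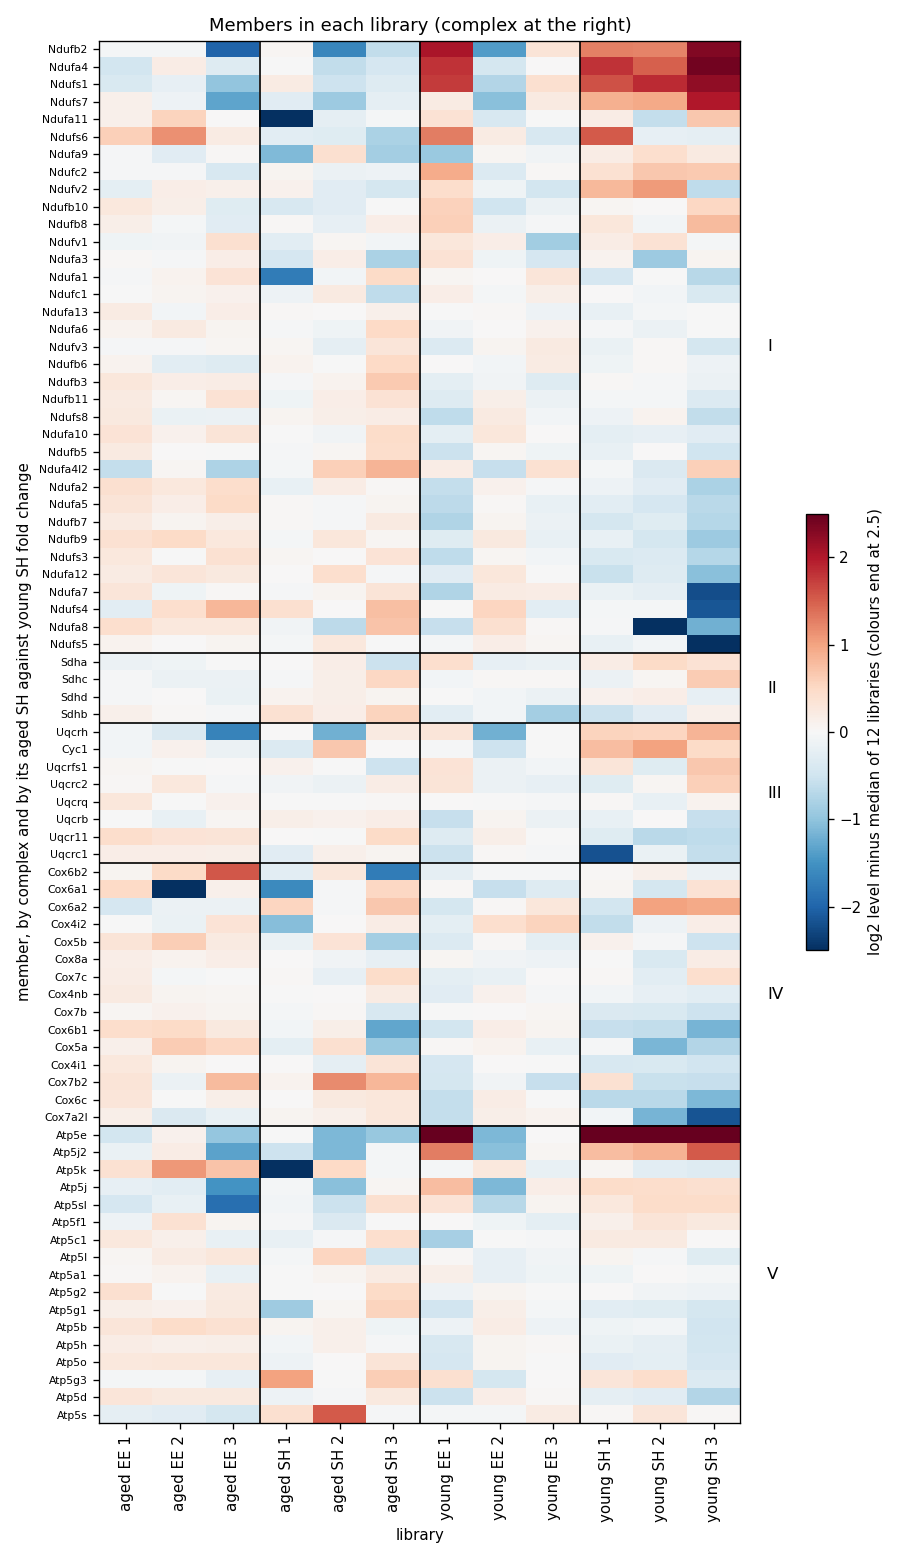
Log2 level of each member shown in each library minus its median over 12 libraries, red above and blue below, with colours ending at 2.5. Rows are grouped by complex and ordered by the aged SH against young SH fold change. The red block at the right of the top rows of complexes I and V holds Atp5e, Ndufb2, Ndufa4 and Ndufs1 in young SH and in young EE library 1.

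A few members showed a further step. Atp5j, a coupling factor of the stalk, was at 356, 340 and 145 RPM in aged EE, 397, 197 and 420 RPM in aged SH, 701, 186 and 455 RPM in young EE and 562, 556 and 540 RPM in young SH. Uqcrh was at 83.2, 67.7 and 27.2 RPM in aged EE, 87.9, 37.99 and 102 RPM in aged SH, 108, 37.6 and 86.3 RPM in young EE and 129, 126 and 158 RPM in young SH. In both genes aged EE library 3, aged SH library 2 and young EE library 2 were the lowest libraries of their groups. The same held for 12 members in all: Ndufb2, Ndufb6, Ndufb8, Ndufc2, Ndufs1, Ndufs7, Uqcrh, Atp5e, Atp5g3, Atp5j, Atp5j2 and Atp5sl. This pattern was picked after the values were seen. Its share over all genes was not counted, so it is not read as particular to the members.

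The tags of the called members and of 3 members with a like pattern over libraries are shown, since some of them end with the transcript or cross an exon junction. They were read from the annotated transcripts of the files' own build (mm9), from the last NlaIII site before the poly(A) end, with the site in capitals. These are the tags that the annotation gives, and the tags counted in the libraries may differ from them. The annotated Uqcrb tag, for example, has 0 bases after its site, yet Uqcrb averaged 93.7 RPM.
Atp5e: CATGgttcactttctgc
Ndufs1: CATGttaaaaaca
Ndufs7: CATGgggagctgtgccaatggcggtgg
Ndufb2: CATGactcggatgctgtgctgggtcac
Uqcrh: CATGcacgggaccactgtgtggcccac
Ndufa4: CATGttgattttttttttttttggagt
Atp5j2: CATGgccgagcataactgcccgcccca
Cox6c: CATGaatatgtgtgggctaaggaatag
Uqcr11: CATGttgacagacactagggctgcctt
The Atp5e tag (chr2:174286573-174286589, minus strand, 3′ UTR) and the Ndufs1 tag (chr1:63190170-63190182, minus strand, 3′ UTR) end with the transcript, with 13 and 9 bases after the site, short of the full 27. The Ndufs7 (chr10:79717873-79718686, plus strand), Ndufb2 (chr6:39546574-39548270, plus strand) and Uqcrh (chr4:115739769-115742485, minus strand) tags lie in coding sequence and cross an exon junction, so that the coordinates span an intron. The Ndufa4 tag (chr6:11850406-11850432, minus strand) holds a run of T in the 3′ UTR. The Atp5j2 tag (chr5:145944658-145944684), the Cox6c tag (chr15:35861766-35861792) and the Uqcr11 tag (chr10:79865780-79865806), all on the minus strand, lie whole inside 1 exon in the 3′ UTR.

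By annotation, 4 of the 80 members had a tag cut short by the transcript end (Atp5e, Ndufs1, Ndufs6 and Uqcrb). Another 7 had a tag across an exon junction and 69 had a whole tag inside 1 exon. The median log2 fold change of aged SH against young SH was -1.46 for the first 4 and -0.97 for the 7. Over all genes tested that could be matched to a transcript (12666), it was -0.35 for 945 genes with a tag cut short, -0.72 for 155 genes with a tag across a junction and 0.01 for 11555 genes with a whole tag. In the first class 11.3% of genes were called lower and 1.27% higher, in the second 5.16% and 0%, and in the third 0.900% and 1.19%. Of the 4 members called lower in aged SH against young SH, Atp5e and Ndufs1 belong to the first class, Ndufs7 to the second and Ndufa4 to the third. Not each member of a class moved this way: Uqcrb was at 0.39, Ndufb6 at 0.26, Cox5b at -0.08 and Atp5c1 at -0.08. Whether tag position has a part in these differences was not tested. Of the whole tags, 5 had no unbroken copy in the genome sequence (Ndufb2, Ndufb6, Ndufs7, Uqcrh and Atp5c1, all across a junction), 55 had 1 copy and 16 had more, with up to 10 for Atp5l.

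**Figure D5:**
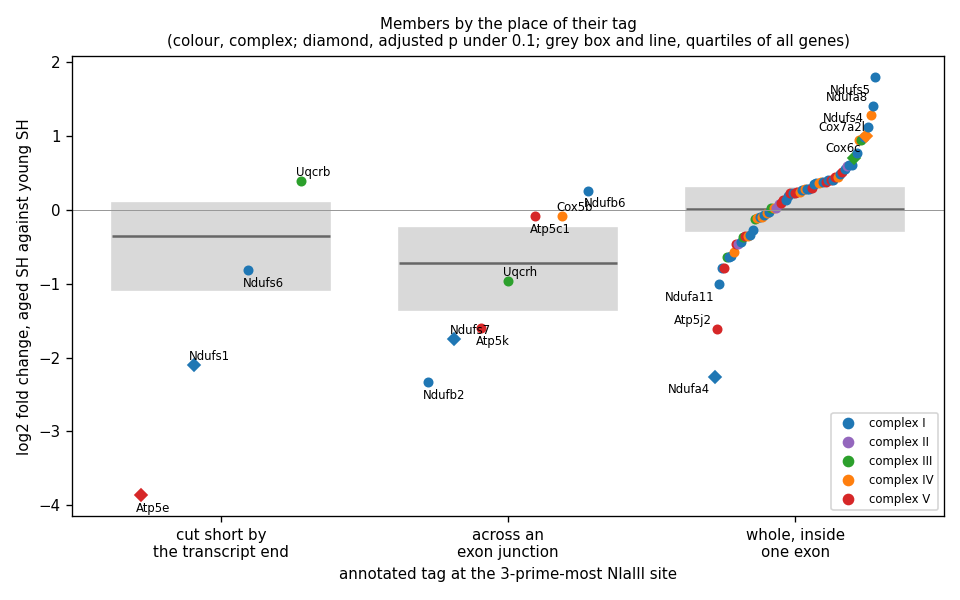
Log2 fold change of aged SH against young SH for the 80 members, grouped by where the annotated tag lies. Grey boxes and lines are quartiles and medians of all genes in the class (-0.35, -0.72 and 0.01), and diamonds are members at an adjusted p under 0.1.

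Single libraries far from the rest decided several fold changes. At least 1 of 12 libraries was more than 4-fold below the median of the libraries for 11 members (8.94% of all genes), and more than 4-fold above it for 5 (4.09% of all genes). Among members of at least 100 RPM these were 7 and 0 of 52, against 5.01% and 1.75% of all genes of that level. Ndufs5, a complex I subunit of the intermembrane side, was at 365, 398 and 13.2 RPM in young SH and at 400 to 500 RPM in the other 9 libraries. Young SH library 3 held 109 of its reads, against 1980 to 4602 in the other 11. Atp5k, the e subunit, was at 133, 218 and 168 RPM in aged EE and at 1.60, 145 and 99.5 RPM in aged SH, where library 1 held 16 reads. Its log2 fold change of aged EE against aged SH was 2.51 (SE 1.20), the highest of the members, and rests on that library.

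Further single low values were Ndufa8 at 4.84 RPM in young SH library 2 (median of libraries 41.3 RPM), Cox6a1 at 94.9 RPM in aged EE library 2 (566 RPM), Uqcrc1 at 100 RPM in young SH library 1 (456 RPM), Ndufa11 at 9.91 RPM in aged SH library 1 (57.6 RPM), and Ndufa7, Ndufs4 and Cox7a2l at 82.1, 41.5 and 72.3 RPM in young SH library 3. Young SH library 3 held 4 of the low and 5 of the high values, and 2.87% of all genes were more than 4-fold above the median there, the most of any library. By contrast 27 members varied less than 2-fold over the 12 libraries. The share of all genes that varied this little was not counted, so this is not read as particular to the members. Ndufa13 was at 535 to 709 RPM, Sdhd at 114 to 150 RPM, Atp5a1 at 619 to 822 RPM and Uqcrq at 568 to 785 RPM.

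Nuclear genes of the respiratory chain are known targets of NRF1, of GABPA (an ETS factor), of YY1 and of ERR receptors, so their promoters were searched for short motifs. For 64 of the 80 members a RefSeq promoter (GRCm38.p6, 250 bases before to 50 after the start) was matched, and both strands were searched. A gene counted as holding a motif if any of its promoter entries held it. The YY1 motif AAGATGGC was in 17.2% of these members, against 3.19% of all 27025 genes and 5.01% of 10334 genes with a signal of at least 10 in 3 libraries. The ETS motif CCGGAAG was in 25% (9.93% and 18.6%), the NRF1 core TGCGCATGC in 7.81% (1.72% and 3.29%), the ERR motif AAGGTCA in 10.9% (5.38% and 3.88%) and the TATA box TATAAA in 9.38% (15.7% and 8.82%). The YY1 motif was held by 7 of 31 complex I and 4 of 16 complex V members with a promoter and by 0 of 17 of the rest.

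Of the 10 members below young SH in all aged libraries, 9 had a promoter. The ETS motif was in 3 (Uqcrh, Atp5e, Atp5j), the YY1 motif in 3 (Ndufs7, Atp5j, Atp5j2) and the NRF1 core in 0. The ERR motif was in 2 (Ndufb2, Atp5e) and the TATA box in 1 (Ndufs7). Of the 15 members above young SH, 11 had a promoter, with the ETS motif in 4, the YY1 motif in 0 and the NRF1 core in 0. Among these 11 the ERR motif was in 1 and the TATA box in 2. The promoters of Atp5e (chr2:174464052-174464351, minus strand) and of Atp5j (chr16:84834927-84835226, minus strand, 1 of its entries) are shown, with the ETS and YY1 motifs in capitals as they read on the printed strand.
Atp5e: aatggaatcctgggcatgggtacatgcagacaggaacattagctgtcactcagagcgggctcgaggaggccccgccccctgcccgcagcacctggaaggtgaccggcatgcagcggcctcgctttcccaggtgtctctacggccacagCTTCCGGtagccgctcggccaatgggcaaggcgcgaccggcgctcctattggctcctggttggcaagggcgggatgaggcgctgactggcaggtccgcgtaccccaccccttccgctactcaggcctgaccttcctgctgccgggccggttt
Atp5j: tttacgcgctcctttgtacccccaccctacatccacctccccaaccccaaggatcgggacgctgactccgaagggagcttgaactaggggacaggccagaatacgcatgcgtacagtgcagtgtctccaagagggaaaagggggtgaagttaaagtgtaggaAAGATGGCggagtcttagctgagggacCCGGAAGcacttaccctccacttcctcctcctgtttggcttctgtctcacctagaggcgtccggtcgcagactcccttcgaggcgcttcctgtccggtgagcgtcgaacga
In Atp5e the capitals mark the ETS motif, in reverse, and in Atp5j the YY1 and the ETS motif. The ERR motif, which Atp5e also holds in reverse, is not marked.

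Genes around the respiratory chain were taken from 7 lists of 105 genes, of which 103 were tested. In the 2 housing comparisons, in aged EE against young EE and in the difference of housing effects, 0 of the 103 passed by limma. In aged SH against young SH, 2 of 17 TCA cycle genes passed and were higher in aged SH, and no gene of the other 6 lists did. Over all genes, 2.91% passed and 1.18% passed as higher. Cs, the citrate synthase, was at 551, 652 and 637 RPM in aged SH and at 357, 417 and 256 RPM in young SH (log2 fold change 0.86, SE 0.21, adjusted p = 0.087). Idh3a, a subunit of NAD-dependent isocitrate dehydrogenase, was at 377, 422 and 554 RPM in aged SH and at 230, 284 and 180 RPM in young SH (0.97, SE 0.19, adjusted p = 0.066). Neither gene's groups overlapped, and 11.8% of all genes were higher in aged SH without overlap. Without aged SH library 1, young EE library 3 or young SH library 3, 0 of all genes passed, so neither call held there.

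The list medians of aged EE against aged SH were 0.00 for complex I assembly, 0.15 for complex II to V assembly, -0.04 for electron carriers, 0.02 for the TCA cycle, 0.03 for ATP export and regulation, 0.13 for mitochondrial biogenesis and 0.14 for glycolysis. The genes with the smallest p were the complex III assembly factor Lyrm7 at 1.103 (SE 0.34), the ATP synthase assembly factor Atpaf2 at 1.03 (SE 0.36), the uncoupling proteins Slc25a27 at -0.57 (SE 0.21) and Ucp2 at 0.64 (SE 0.43), and the glycolytic enzymes Tpi1 at 0.34 (SE 0.13) and Pgam1 at 0.49 (SE 0.20). In the TCA cycle they were Idh2 at 0.46 (SE 0.17) and Idh3a at -0.45 (SE 0.19), among electron carrier genes Coq5 at -0.43 (SE 0.22) and Coq4 at 0.28 (SE 0.15), among biogenesis genes Polg at 0.35 (SE 0.19) and Tfb1m at 0.55 (SE 0.34), and in complex I assembly Ndufaf3 at 0.90 (SE 0.61) and Ndufaf4 at 0.16 (SE 0.18). Their adjusted p were all 0.52 or above. Outside the members, the genes whose log2 level was most like the mean log2 level of the 80 members over the 12 libraries were Rnf26 (r = 0.80), Fibcd1 (r = 0.79) and Dph1 (r = 0.78), as a description.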

How the data were processed

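Expression was measured by SAGE-Seq in 12 hippocampus libraries. The authors mapped SOLiD tags to NCBI37/mm9 with 1 mismatch allowed and compared groups with edgeR. Per transcript and library, the deposited table holds a signal: a read number over a scaling factor particular to that library, kept to 4 significant digits. Reads were recovered by dividing by the step of each library, with all values below 1000 whole within 0.1 read. Of 12 deposited tables with the same library values, 11 were not used, nor were columns of the authors' fold changes and p-values.

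Reads of 1 transcript per gene were filtered (edgeR 4.0.16, minimum count 10), scaled by TMM, and fitted in R 4.3.3 with limma 3.58.1 (trend, prior count 2) over all 12 libraries in 4 groups. Benjamini-Hochberg adjustment ran over all 13138 genes with a threshold of 0.1. Alternatives were edgeR's tests, DESeq2 1.42.0, other scalings, filters, prior counts, transcripts, sample sets and left-out libraries. Depth was 6928727 to 16035089 reads. Reads carry no molecular identifiers.

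The members and lists were chosen with earlier results of these data known. Named were members past the threshold, the 2 smallest p per complex and comparison, the 3 highest and 1 lowest of each complex, isoform sets, catalytic subunits, members nearest the minimum, up to 2 genes per list by p in aged housing, and 3 genes most like the member mean. The genes named for single libraries, for the pattern over libraries and for little variation were chosen after their values were seen. The values of 1 catalytic subunit are not reported here.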

Additional observations from a re-analysis of the deposited data

How the results depend on the processing

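The count of members past the threshold in aged SH against young SH depended on several choices. Against 6, it was 11 with DESeq2, 0 with no filter on low counts, 0 with the 8 libraries the study used and 0 at a threshold of 0.05, and it ran between 0 and 14 in fits without 1 library. Over all genes the count was 382, and it was 985 with edgeR's likelihood ratio test, 1145 with DESeq2, 2 with no filter and 0 with the 8 libraries. For young EE against young SH the count of 0 members became 2 with DESeq2 and ran between 0 and 4 without 1 library. For the difference of housing effects it ran between 0 and 1, and its median log2 fold change over members between -0.0761 and 0.075. The median of aged SH against young SH was 0.0491 with scaling by total reads. The counts of 0 in aged EE against aged SH and aged EE against young EE held in every alternative run. The Sdhc log2 fold change, young EE against young SH, of -0.18 was 0.0365 with the 8 libraries and ran between -0.3471 (without young SH library 1) and 0.0478 (without young SH library 3). Of 1021 values of 41 named fold changes under alternatives, 1019 kept their direction. Only the 6 fold changes called in aged SH against young SH had passed in the main fit. The 75 values that no longer passed the threshold all belong to these 6. The causes were not tested.

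Same-numbered libraries showed no common deviation (r between -0.23 and 0.21 over 18 pairs). Differently numbered libraries gave r between -0.38 and 0.41 over 36 pairs. With 3 libraries per group these values cannot exclude a weak pairing, and the main fit used none. With the replicate block, 2 members passed in aged SH against young SH, Ndufa4 and Atp5e, and 114 of all genes. The depth of the shallowest library makes 1 read worth 0.144 RPM, so members near 1 RPM rest on few reads.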
